A study of Mus musculus with 23 samples.

Results

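The genes described here are 10 regulators of apoptosis and targets of the p53 tumour suppressor, Bcl2, Bcl2l1, Mcl1, Bax, Bak1, Bbc3, Bcl2l11, Cdkn1a, Mdm2 and Ccng1, in the colon of mice fed dietary heme, the iron-containing pigment of red meat. They were chosen by name and followed by Entrez number to the array annotation, with the brightest probe set (the group of array probes summarised into 1 value) kept for each gene. Of the 10 genes, 9 had a probe set annotated to them alone and are described, out of 18820 genes on the array. Bax was not analysed here. The study asked whether activation of the nuclear receptor PPARα by heme shapes the response of the colon, and compared PPARα knockout (KO) with wild type (WT) mice. Male mice, 7 to 9 weeks old at the start, ate a palm oil and corn oil diet (fat at 40% of energy, calcium at 30 µmol per g) for 14 days, with or without 0.5 µmol heme per g. The groups were 6 KO mice on heme, 6 KO mice on the control diet, 6 WT mice on heme and 5 WT mice on the control diet, with 1 array per mouse. KO mice were 129S4/SvJae-Pparatm1Gonz/J, in which Ppara is disrupted in all cells, and WT mice were 129S1/SvImJ, so that genotype and substrain cannot be told apart.

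Apoptosis through the mitochondrion is set by the BCL2 family. Bak1 and Bax encode the effectors that open the outer mitochondrial membrane, Bcl2, Bcl2l1 (BCL-XL) and Mcl1 encode proteins that hold the effectors back, and Bbc3 (PUMA) and Bcl2l11 (BIM) encode BH3-only proteins that release or activate them. The transcription factor p53, which responds to DNA damage, switches on Bax, Bbc3, the cell cycle inhibitor Cdkn1a (p21), the ubiquitin ligase Mdm2 that destroys p53 in turn, and Ccng1 (cyclin G1). In colon epithelium, cells divide in the crypt, differentiate as they move up and are shed at the surface, and Bcl2 is best known from the crypt base and from lymphocytes.

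p53 binds DNA at pairs of a half-site of 10 bases, and the promoters of the described genes differ in whether they hold one. RefSeq windows of assembly GRCm38.p6, from 250 bases before to 50 bases after each annotated start, were found for all 10 genes and numbered 16, since some genes have several starts. The p53 half-site motif, which reads the same on both strands, was present without mismatch in 4 of these 16 windows, in Cdkn1a, Mdm2, Ccng1 and Bax, against 2745 of 32851 windows of all genes (8.36%). A pair of adjoining half-sites with at most 1 mismatch over its 20 bases was found in the windows of Cdkn1a and Ccng1, and in 22 of 32851 windows of all genes (0.067%). The 3 stretches below are those of the measured p53 targets with a half-site without mismatch in a window, and were chosen for that match. Capitals mark the pair of half-sites for Cdkn1a and Ccng1 and the single half-site for Mdm2.
Cdkn1a, chr17:29090908-29090967, plus strand: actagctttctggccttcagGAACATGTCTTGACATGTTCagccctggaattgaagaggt
Ccng1, chr11:40755442-40755501, minus strand: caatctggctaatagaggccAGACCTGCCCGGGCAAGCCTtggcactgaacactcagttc
Mdm2, chr10:117710915-117710964, minus strand: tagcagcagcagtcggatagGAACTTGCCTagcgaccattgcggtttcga
The capitals were centred 41 bases before the more upstream annotated start of Cdkn1a, 185 before the start of Ccng1 and 181 before that of Mdm2. The window at the second, downstream annotated start of Cdkn1a (chr17:29093519-29093818) held no half-site without mismatch, nor did those of Bak1, Bbc3, Bcl2, Bcl2l1, Bcl2l11 and Mcl1. These are matches of letters in short windows, and binding of p53 was not measured.

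The RNA came from mucosa scraped off the colon, proximal and distal scrapings of a mouse together. A sixth WT control array had been dropped by the study for poor quality. Values are log2 expression after Robust Multi-array Average, and a gene was called changed at a Benjamini-Hochberg adjusted p under 0.01 in limma, over all 18820 genes and only if either group of the comparison had an average linear signal over 20, which all 9 genes exceeded. Ppara itself had a mean log2 expression of 7.63 ± 0.226 in KO heme, 8.26 ± 0.222 in KO control and 8.69 ± 0.157 in WT heme mice (SD, n = 6 each), and 8.95 ± 0.146 in WT control mice (SD, n = 5). Where its probes lie relative to the disrupted exon was not determined. Array medians lay between 5.8 and 5.9, and arrays of a group correlated with each other at 0.9914 to 0.9963 on average. The 12 colonocyte markers averaged 11.68 to 11.90 per mouse, although single genes moved both ways, with 3 called higher and 2 lower on heme in KO mice and 2 higher and 2 lower in WT mice. Krt20, a keratin of differentiated surface cells, had log2 fold changes of 0.47 in KO and 0.50 in WT mice and the brush border gene Vil1 0.29 in KO and 0.32 in WT mice, whereas Epcam had -0.24 in KO and -0.18 in WT mice and Cdh1 -0.19 in KO and -0.17 in WT mice. The 7 measured myeloid markers averaged 5.02 to 6.03, with 1 of the 7, Itgam, called lower on heme in each genotype. Over all 23 arrays the smooth muscle markers had the widest span of these lists. The mean of 10 such genes lay at 7.65 to 8.34 in KO heme and 7.70 to 8.95 in KO control mice. In WT mice it lay at 7.83 to 8.37 on heme and 8.53 to 10.01 on the control diet. On heme 9 of the 10 were called lower in WT mice and 1 in KO mice, with median log2 fold changes of -1.19 and -0.53. None of the 10 was called between KO and WT mice on either diet, or for a difference of the heme effect between genotypes. A difference between the genotypes in these markers is therefore not shown. The 9 measured proliferation markers were all called higher on heme in each genotype, with median log2 fold changes of 0.79 in KO and 0.84 in WT mice. In this bulk tissue fewer cells of a type and less RNA per cell cannot be told apart.

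Heme raised Bak1 in both genotypes and lowered Bcl2 in WT mice, while 1 of 9 genes was called in KO mice and 2 of 9 in WT mice. Among all genes tested 18.4% were called for heme in KO mice (9.23% higher and 9.20% lower) and 17.9% for heme in WT mice (9.60% higher and 8.29% lower), so that the counts of called genes are near that background and are no result about these genes as a set. The median log2 fold change over the 9 genes was 0.05 in KO mice and 0.02 in WT mice, beside -0.01 over all genes in each. At an unadjusted p under 0.05 there were 5 of the 9 genes in each genotype, against 7139 of all genes in KO and 7002 in WT mice. Heme-fed and control mice did not overlap for 1 gene in KO mice (13.9% of all genes) and for 3 genes in WT mice (15.1% of all genes).

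**Figure D1:**
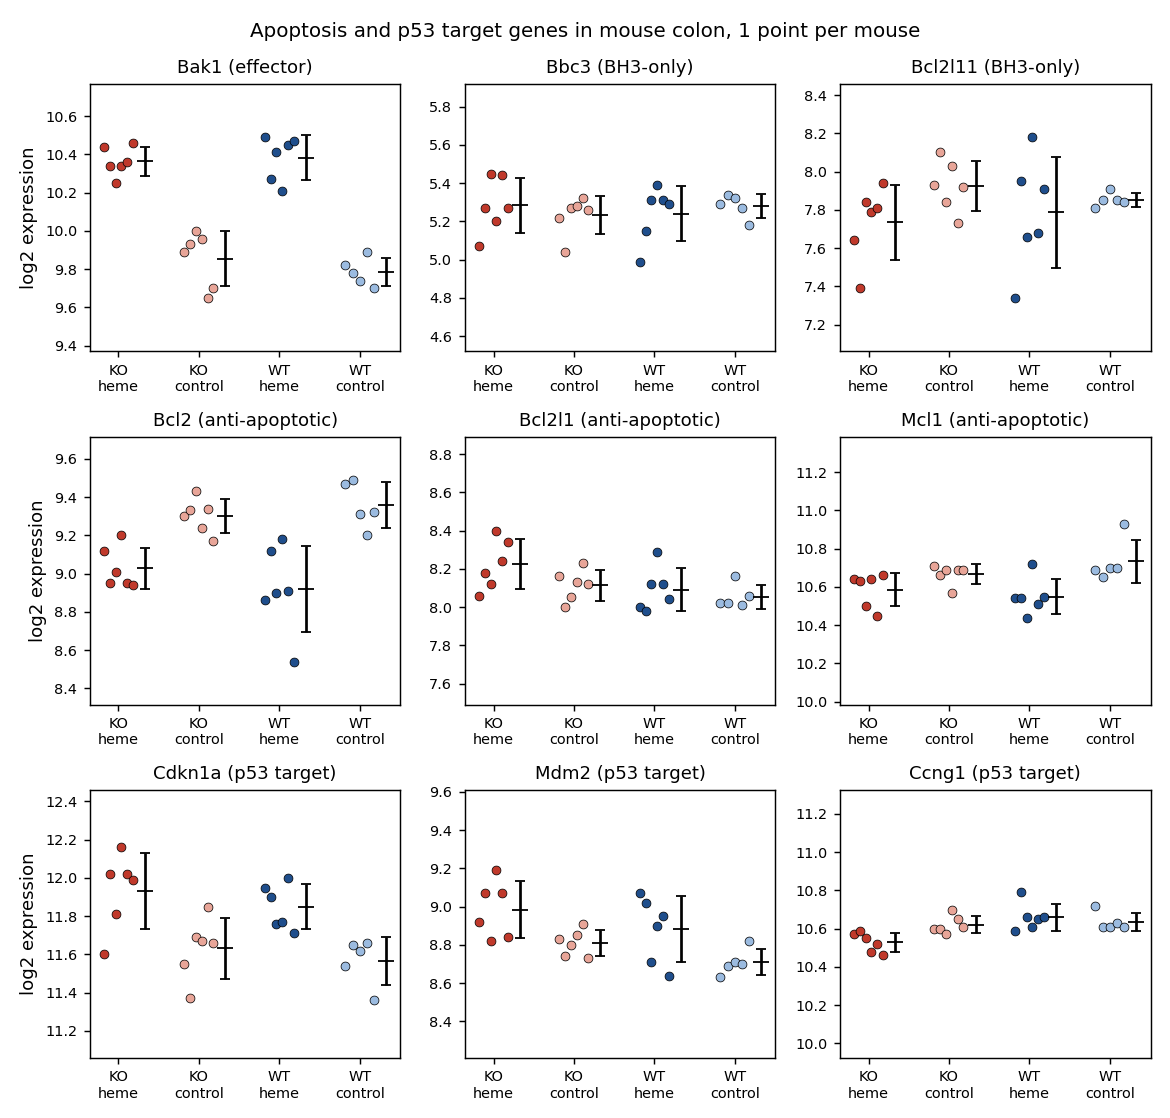
Log2 expression (vertical axis, every panel spanning the same number of log2 units) of the 9 measured genes in colon, 1 point per mouse, in KO heme, KO control, WT heme and WT control mice, with bars for the mean ± SD. All 12 heme-fed mice lay above all 11 control mice for Bak1, whereas heme-fed and control mice of a genotype overlapped for the other genes, except for Bcl2 and Cdkn1a in WT mice.

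Among the effectors, Bak1 was measured at a lowest, median and highest log2 value of 10.25, 10.35 and 10.46 in KO heme mice, against 9.65, 9.91 and 10 in KO control mice. In WT heme mice it had 10.21, 10.43 and 10.49, against 9.82, 9.78, 9.74, 9.89 and 9.70 in the 5 WT control mice. Every heme-fed mouse was thus above every control mouse, in each genotype and also across them. On the linear scale the signal averaged 1320 ± 69.7 in KO heme and 929 ± 91.4 in KO control mice (SD, n = 6 each), and 1340 ± 104 in WT heme mice (SD, n = 6) and 883 ± 44.1 in WT control mice (SD, n = 5). The log2 fold change of Bak1 for heme was 0.51 ± 0.0634 in KO mice (SE, 95% confidence interval 0.38 to 0.64, limma adjusted p = 3.39e-06), which is 1.42-fold. In WT mice it was 0.60 ± 0.0665 (SE, 95% confidence interval 0.46 to 0.74, limma adjusted p = 9.26e-07), or 1.52-fold. Ordered by p, Bak1 stood at place 236 of 18820 genes in KO and 120 in WT mice. With the smooth muscle level of each mouse as a covariate the log2 fold change of Bak1 was 0.51 in KO and 0.60 in WT mice (limma adjusted p = 2.29e-05 and 3.08e-04). The part of the proliferation markers and of the colonocyte genes Krt20 and Vil1, which moved with heme too, was not tested, here or for Cdkn1a. A second, dim probe set annotated to Bak1, at a mean log2 value of 5.23, disagreed with the brighter one, with log2 fold changes of -0.06 in KO (limma adjusted p = 0.609) and -0.03 in WT mice (limma adjusted p = 0.838). That comparison over 21218 probe sets was added after the data were seen. With both probe sets averaged, the log2 fold change of Bak1 was 0.22 in KO (limma adjusted p = 0.00284) and 0.28 in WT mice (limma adjusted p = 5.57e-04), so that its size rests on the brighter probe set.

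Neither BH3-only gene was called. Bbc3, the p53 target that encodes PUMA, was dim, at a mean log2 value of 5.28 ± 0.146 in KO heme, 5.23 ± 0.0976 in KO control and 5.24 ± 0.147 in WT heme mice (SD, n = 6 each) and 5.28 ± 0.0629 in WT control mice (SD, n = 5). Its log2 fold change for heme was 0.05 in KO (limma adjusted p = 0.644) and -0.04 in WT mice (limma adjusted p = 0.756). Bcl2l11, which encodes BIM, spread more widely among heme-fed mice, at 7.39 to 7.94 in KO heme and 7.34 to 8.18 in WT heme mice, against 7.73 to 8.10 in KO control and 7.81 to 7.91 in WT control mice. Its log2 fold change was -0.19 in KO (limma adjusted p = 0.198) and -0.07 in WT mice (limma adjusted p = 0.732).

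Of the anti-apoptotic genes, Bcl2 was the one called. Its lowest, median and highest log2 values were 8.94, 8.98 and 9.20 in KO heme mice, against 9.17, 9.32 and 9.43 in KO control mice. In WT heme mice it had 8.54, 8.90 and 9.18, against 9.47, 9.49, 9.31, 9.20 and 9.32 in WT control mice. The WT groups did not overlap, with 9.18 on heme and 9.20 on control diet as their nearest values, and in KO mice 5 of 6 heme-fed mice lay below all 6 controls. The linear signal of Bcl2 averaged 523 ± 40.0 in KO heme and 632 ± 38.8 in KO control mice (SD, n = 6 each), and 488 ± 73.6 in WT heme mice (SD, n = 6) and 658 ± 55.0 in WT control mice (SD, n = 5). In WT mice the log2 fold change for heme was -0.44 ± 0.0864 (SE, 95% confidence interval -0.62 to -0.26, limma adjusted p = 5.12e-04). In KO mice it was -0.27 ± 0.0824 (SE, 95% confidence interval -0.45 to -0.10), and its limma adjusted p of 0.0142 missed the threshold. Without WT heme replicate 4, WT heme replicate 6 or KO heme replicate 4 the KO value passed it, with a limma adjusted p of 0.00878, 0.00351 and 0.00963. Over all arrays left out, the limma adjusted p of Bcl2 in KO mice ran from 0.00351 to 0.0344. The second probe set of Bcl2, at a mean log2 value of 4.61, gave -0.19 in KO (limma adjusted p = 0.171) and -0.14 in WT mice (limma adjusted p = 0.341). With both probe sets averaged, Bcl2 had -0.23 in KO (limma adjusted p = 0.00912) and -0.29 in WT mice (limma adjusted p = 0.00226).

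Bcl2 and the smooth muscle markers were lower together in WT heme mice. With the smooth muscle level as a covariate, the log2 fold change of Bcl2 in WT mice was -0.29 and no longer called (limma adjusted p = 0.0978), and in KO mice it was -0.21 (limma adjusted p = 0.0845). In KO mice the smooth muscle levels of the diets overlapped, at 7.65 to 8.34 on heme and 7.70 to 8.95 on the control diet. In WT mice the smooth muscle levels of the diets did not overlap, so that there muscle level and diet cannot be told apart. Lymphocytes also use Bcl2, and the 10 measured lymphocyte markers averaged 5.70 to 7.30 in KO heme, 6.27 to 6.78 in KO control, 5.88 to 6.35 in WT heme and 6.16 to 6.28 in WT control mice. None of the 10 was called for heme in either genotype taken alone, 2 were called lower over both genotypes together, and their part in the Bcl2 value was not tested.

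**Figure D2:**
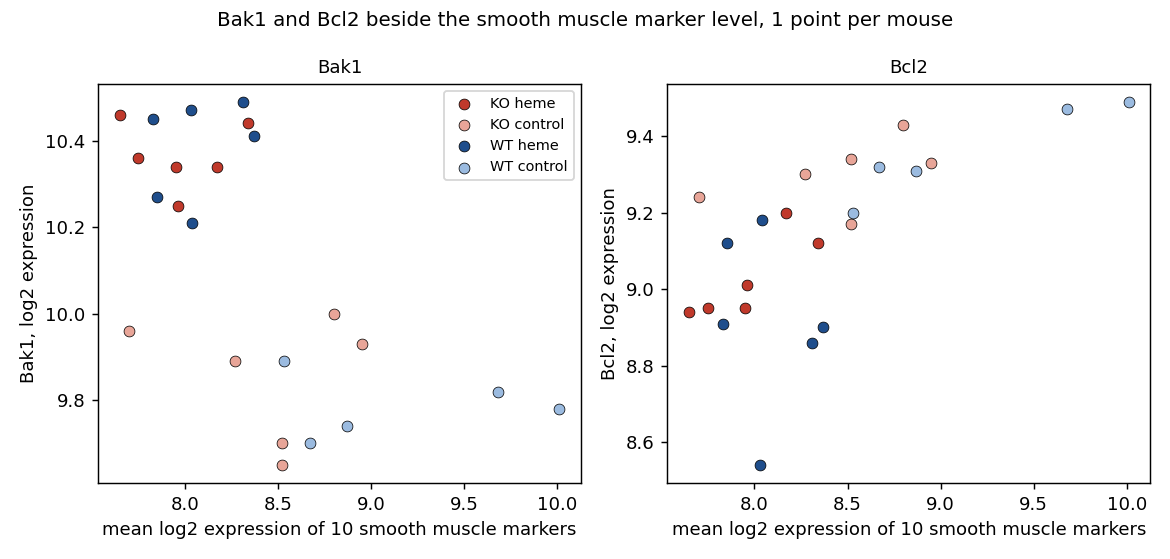
Log2 expression of Bak1 (left) and Bcl2 (right) on the vertical axes beside the mean log2 expression of 10 smooth muscle markers on the horizontal axis, 1 point per mouse and 1 colour per group. All heme-fed mice lie above all control mice for Bak1, also where the muscle levels of KO heme (7.65 to 8.34) and KO control mice (7.70 to 8.95) overlap. The WT control mice with the highest Bcl2 (9.47 and 9.49) are also those with the highest muscle level (9.68 and 10.01). The KO control mouse with the lowest muscle level of its group (7.70) had a Bcl2 of 9.24, in a group range of 9.17 to 9.43. The WT heme mice with the highest muscle levels of their group (8.31 and 8.37) had a Bcl2 of 8.86 and 8.90, in a group range of 8.54 to 9.18. Whether Bcl2 and muscle level run together within a group was not tested.

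The other anti-apoptotic genes were not called. Mcl1, whose protein turns over fast and keeps many epithelial and blood cells alive, had 10.45, 10.63 and 10.66 as lowest, median and highest log2 value in KO heme mice, against 10.57, 10.69 and 10.71 in KO control mice. In WT heme mice it had 10.44, 10.54 and 10.72, against 10.69, 10.65, 10.70, 10.70 and 10.93 in WT control mice. Of the WT heme mice 5 of 6 lay below all WT controls, and 1 lay among them. The log2 fold change was -0.08 in KO (limma adjusted p = 0.289) and -0.18 ± 0.0565 in WT mice (SE, limma adjusted p = 0.0175). Without WT heme replicate 4 the WT value passed the threshold (limma adjusted p = 0.00399). Without WT control replicate 5, the mouse at 10.93, it was -0.13 (limma adjusted p = 0.0718), the highest adjusted p over all arrays left out. Bcl2l1, the gene of BCL-XL, averaged 8.22 ± 0.129 in KO heme, 8.11 ± 0.0802 in KO control and 8.09 ± 0.111 in WT heme mice (SD, n = 6 each) and 8.05 ± 0.0632 in WT control mice (SD, n = 5). Its log2 fold change for heme was 0.11 in KO (limma adjusted p = 0.192) and 0.04 in WT mice (limma adjusted p = 0.744).

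Among the 4 measured p53 targets of the set (Bbc3, Cdkn1a, Mdm2 and Ccng1), Cdkn1a had the largest log2 fold change for heme, but its adjusted p missed the threshold in each genotype taken alone. Cdkn1a, which halts the cell cycle and is also made by differentiating colonocytes without p53, had 11.60, 12.00 and 12.16 as lowest, median and highest log2 value in KO heme mice, against 11.37, 11.67 and 11.85 in KO control mice. In WT heme mice it had 11.71, 11.83 and 12.00, against 11.54, 11.65, 11.62, 11.66 and 11.36 in WT control mice. The WT groups did not overlap, and in KO mice 4 of 6 heme-fed mice lay above all controls, with KO heme replicate 1 the lowest at 11.60. The linear signal averaged 3940 ± 518 in KO heme and 3190 ± 349 in KO control mice (SD, n = 6 each), and 3690 ± 304 in WT heme mice (SD, n = 6) and 3050 ± 250 in WT control mice (SD, n = 5). The log2 fold change was 0.30 ± 0.0865 in KO mice (SE, 95% confidence interval 0.12 to 0.48, limma adjusted p = 0.0109), or 1.23-fold, and 0.28 ± 0.0907 in WT mice (SE, 95% confidence interval 0.09 to 0.47, limma adjusted p = 0.0241), or 1.21-fold. The KO value passed the threshold without KO heme replicate 1 (limma adjusted p = 0.00128), KO heme replicate 3 (0.00918), KO control replicate 5 (0.00549) or WT control replicate 5 (0.00939). Over all arrays left out, the limma adjusted p of Cdkn1a ran from 0.00128 to 0.0343 in KO and from 0.0107 to 0.0806 in WT mice. With the smooth muscle level as a covariate Cdkn1a had 0.27 in KO (limma adjusted p = 0.0399) and 0.22 in WT mice (limma adjusted p = 0.279).

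Mdm2, which closes the negative feedback on p53, had 8.82, 8.99 and 9.19 as lowest, median and highest log2 value in KO heme mice, against 8.73, 8.81 and 8.91 in KO control mice. In WT heme mice it had 8.64, 8.93 and 9.07, against 8.63, 8.69, 8.71, 8.70 and 8.82 in WT control mice. In each genotype 4 of 6 heme-fed mice lay above all controls. The log2 fold change was 0.17 ± 0.0714 in KO (SE, limma adjusted p = 0.0729) and 0.17 ± 0.0748 in WT mice (SE, limma adjusted p = 0.0982). Ccng1, whose promoter holds the second pair of half-sites printed above, was not called and its values for heme differed in sign between genotypes. It spanned 10.46 to 10.59 in KO heme and 10.57 to 10.70 in KO control mice, and 10.59 to 10.79 in WT heme and 10.61 to 10.72 in WT control mice. Its log2 fold change was -0.09 ± 0.0402 in KO (SE, limma adjusted p = 0.0891) and 0.02 in WT mice (limma adjusted p = 0.756).

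**Figure D3:**
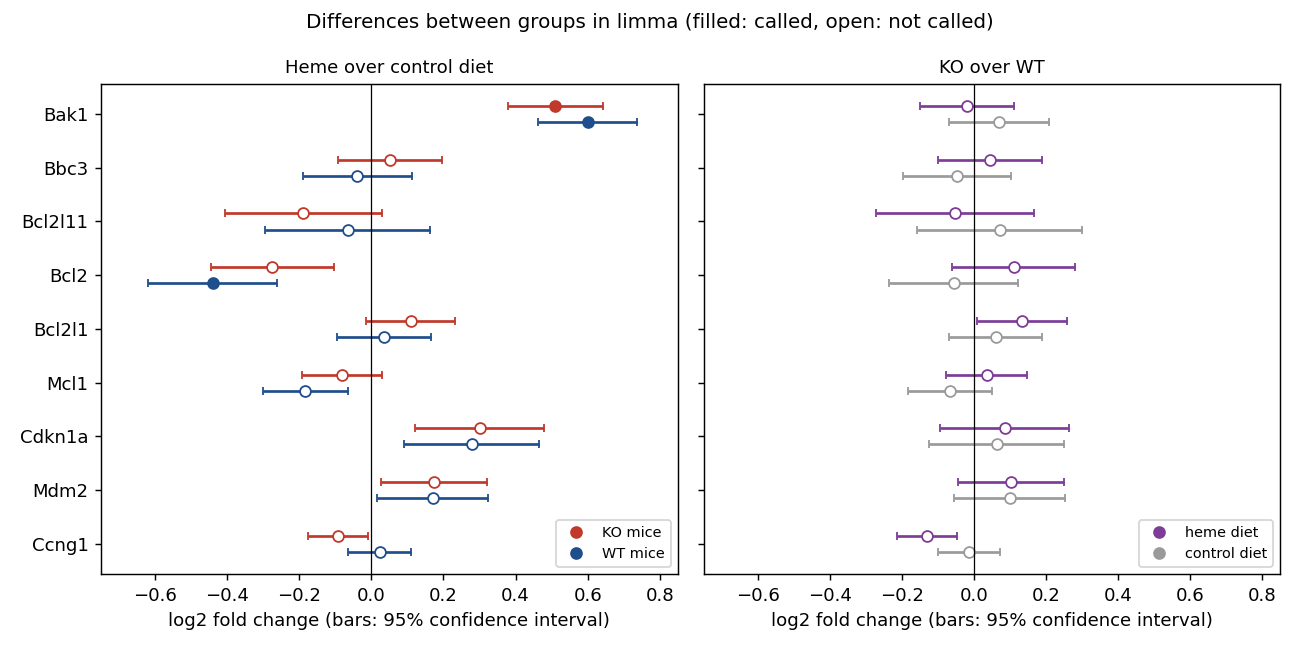
Log2 fold change of the 9 measured genes in limma with 95% confidence intervals (horizontal axis), on the left heme over control diet in KO and WT mice, on the right KO over WT on the heme and on the control diet. Filled points passed the threshold, which Bak1 did for heme in both genotypes (0.51 and 0.60) and Bcl2 in WT mice (-0.44), and no gene did for KO over WT.

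When the heme effect was averaged over the genotypes, a comparison added after the data were seen, 5 of 9 genes were called, 3 higher and 2 lower. Among all genes 30.3% were called in this comparison (14.8% higher and 15.6% lower), and the median log2 fold change of the 9 genes was 0.01, beside -0.01 over all genes. Bak1 had a log2 fold change of 0.56 ± 0.0460 (SE, limma adjusted p = 3.15e-09) and Cdkn1a of 0.29 ± 0.0626 (SE, limma adjusted p = 6.34e-04). Bcl2 had -0.36 ± 0.0597 (SE, limma adjusted p = 3.75e-05). Mdm2 at 0.17 ± 0.0517 (SE, limma adjusted p = 0.00979) and Mcl1 at -0.13 ± 0.0390 (SE, limma adjusted p = 0.00847) lay just inside the threshold. Each of these last genes lost its call when any of 16 of the 23 arrays was left out, with adjusted p up to 0.0207 for Mdm2 and 0.0201 for Mcl1. Mdm2 kept it without WT control replicate 5, WT heme replicates 3 or 6, KO control replicate 5 or KO heme replicates 1, 3 or 6, and Mcl1 without WT control replicate 2, WT heme replicate 4, KO control replicate 4 or KO heme replicates 1, 2, 4 or 6. With the smooth muscle level as a covariate, Bak1 was called (0.56) and the other 4 were not, although their log2 fold changes kept their sign. These were -0.25 for Bcl2 (limma adjusted p = 0.0264), 0.25 for Cdkn1a (0.0483), -0.15 for Mcl1 (0.0561) and 0.13 for Mdm2 (0.215). Calls fell over all genes too, to 3318 with the covariate, against 5711 without it. In WT mice the muscle levels of the diets did not overlap, so that the lost calls cannot be assigned to muscle or to diet. Of the 10 lymphocyte markers, 2 were called lower in the averaged comparison, Cd3g at -0.43 (limma adjusted p = 0.00662) and Cd8a at -0.31 (limma adjusted p = 0.00125). With both probe sets averaged, Bak1 had 0.25 (limma adjusted p = 1.34e-05) and Bcl2 -0.26 (limma adjusted p = 8.61e-05).

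None of the 9 genes was called between KO and WT mice on either diet. On heme the log2 fold change of KO over WT ran from -0.13 to 0.13, with confidence bounds between -0.27 and 0.28 and a lowest limma adjusted p of 0.146, and 0.234% of all genes were called. At an unadjusted p under 0.05 there were 2 of the 9 genes on heme, against 2289 of all 18820 genes. They were Ccng1 at -0.13 (limma adjusted p = 0.146), with 5 of 6 KO heme mice below all WT heme mice, and Bcl2l1 at 0.13 (limma adjusted p = 0.368). On the control diet the log2 fold change ran from -0.07 to 0.10, with bounds between -0.24 and 0.30 and a lowest limma adjusted p of 0.962, and 0.0531% of all genes were called. KO and WT mice overlapped for all 9 genes on each diet, against 0.882% of all genes without overlap on heme and 0.893% on the control diet.

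The heme effects of the genotypes were set against each other by the interaction, heme in KO minus heme in WT. None of the 9 genes was called in it, and 0.0106% of all genes were. None of the 9 had an unadjusted p under 0.05, against 1271 of all genes. The interaction was -0.09 for Bak1 (95% confidence interval -0.28 to 0.10), 0.17 for Bcl2 (-0.08 to 0.41) and 0.02 for Cdkn1a (-0.24 to 0.28), on the log2 scale, and the lowest limma adjusted p was 0.744. The call of Bcl2 in WT but not in KO mice is therefore not shown to be a difference between them.

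Other genes of the same pathways were followed in 6 lists, whose genes are described beside the same background of 18.4% called in KO and 17.9% in WT mice. Of 14 measured genes of the BCL2 family beyond those above, 2 were called higher and 1 lower on heme in KO mice, and 1 higher in WT mice. Bcl2l13, a mitochondrial family member linked to mitophagy, averaged 9.11 in KO heme against 8.78 in KO control mice and 9.14 in WT heme against 8.80 in WT control mice, with log2 fold changes of 0.32 in KO (limma adjusted p = 1.26e-04) and 0.34 in WT mice (limma adjusted p = 1.27e-04). Bok, an effector-like family member, had a log2 fold change of 0.40 in KO mice (limma adjusted p = 0.00244) and 0.30 in WT mice (limma adjusted p = 0.0229). The BH3-only gene Bmf had -0.29 in KO (limma adjusted p = 0.00575) and -0.21 in WT mice (limma adjusted p = 0.0555). The median log2 fold change of the list was 0.03 in KO and 0.00 in WT mice.

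Of 27 measured p53 targets beyond those above, 5 were called higher and 3 lower on heme in KO mice, and 6 higher and 2 lower in WT mice, with medians of 0.02 and 0.07. The kinase gene Plk3, which responds to stress, averaged 9.18 in KO heme against 7.95 in KO control mice, a log2 fold change of 1.23 (limma adjusted p = 2.73e-04), and 8.88 in WT heme against 8.01 in WT control mice, a log2 fold change of 0.86 (limma adjusted p = 0.00866). Sulf2, an enzyme that trims heparan sulfate, had log2 fold changes of 1.02 in KO (limma adjusted p = 2.12e-05) and 0.98 in WT mice (limma adjusted p = 5.70e-05). Gadd45a, which slows the cycle after DNA damage, had 0.50 in KO (limma adjusted p = 0.00839) and 0.73 in WT mice (limma adjusted p = 5.99e-04), and Ndrg1, a stress and differentiation gene, had 0.60 in KO (limma adjusted p = 0.00116) and 0.50 in WT mice (limma adjusted p = 0.00819). The death receptor gene Fas ran the other way, at 6.09 to 6.72 in KO heme against 6.83 to 7.21 in KO control mice, and at 5.72 to 6.44 in WT heme against 6.77 to 6.93 in WT control mice. Heme-fed and control mice did not overlap for Fas in either genotype, and its log2 fold changes were -0.75 in KO (limma adjusted p = 3.64e-05) and -0.77 in WT mice (limma adjusted p = 4.72e-05). Ei24 was lower in KO mice at -0.33 (limma adjusted p = 8.71e-04) and had -0.01 in WT mice (limma adjusted p = 0.936), and the excision repair gene Ercc5 was lower in KO mice at -0.23 (limma adjusted p = 0.00108) and had -0.09 in WT mice (limma adjusted p = 0.241). Sesn1, which restrains mTORC1 signalling, had -0.12 in KO mice (limma adjusted p = 0.321) and was lower in WT mice at -0.35 (limma adjusted p = 0.00324). These targets thus moved in both directions.

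Of 14 measured genes of the p53 family and its regulators, 1 was called higher and 2 lower on heme in each genotype, and they were the same 3 genes. The checkpoint kinase gene Chek2 had log2 fold changes of 0.49 in KO (limma adjusted p = 0.00113) and 0.50 in WT mice (limma adjusted p = 0.00152). Atm, the kinase that signals DNA breaks, had -0.47 in KO (limma adjusted p = 1.30e-05) and -0.39 in WT mice (limma adjusted p = 1.46e-04). Mdm4, a partner of Mdm2 in restraining p53, averaged 9.13 in KO heme against 9.38 in KO control mice and 9.09 in WT heme against 9.34 in WT control mice, a log2 fold change of -0.25 in each genotype (limma adjusted p = 0.00123 in KO and 0.00191 in WT mice). Trp53 itself was not analysed here.

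Of 14 measured caspase and apoptosome genes, 4 were called higher and 1 lower on heme in KO mice and 4 higher in WT mice, with medians of 0.13 and 0.11. Casp8, the initiator caspase of death receptors, averaged 11.30 in KO heme against 10.84 in KO control mice (log2 fold change 0.45, limma adjusted p = 5.51e-06) and 11.07 in WT heme against 10.85 in WT control mice (0.22, limma adjusted p = 0.00812). Cycs, the cytochrome c that Bak1 lets out of mitochondria and that also carries electrons in respiration, had log2 fold changes of 0.33 in KO (limma adjusted p = 2.47e-04) and 0.33 in WT mice (limma adjusted p = 4.23e-04). Aifm1, another mitochondrial protein with roles in respiration and death, had 0.27 in KO (limma adjusted p = 4.55e-05) and 0.30 in WT mice (limma adjusted p = 2.72e-05). Not all of these genes promote death, since Xiap, a direct caspase inhibitor, was higher too, with log2 fold changes of 0.44 in KO (limma adjusted p = 1.82e-05) and 0.24 in WT mice (limma adjusted p = 0.00835). The related gene Birc2 was lower in KO mice at -0.33 (limma adjusted p = 0.00128) and had -0.16 in WT mice (limma adjusted p = 0.131).

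Of 10 measured death receptor and ligand genes, 3 were called higher and 2 lower on heme in KO mice, and 1 lower, Fas, in WT mice. The TNF receptor genes Tnfrsf1b at 0.55 (limma adjusted p = 0.00462) and Tnfrsf1a at 0.44 (limma adjusted p = 1.12e-04) and the adaptor gene Tradd at 0.34 (limma adjusted p = 0.00337) were higher in KO mice, on the log2 scale. In WT mice Tnfrsf1b had 0.29 (limma adjusted p = 0.155), Tnfrsf1a 0.21 (limma adjusted p = 0.0456) and Tradd 0.29 (limma adjusted p = 0.0172), all short of the threshold. Tnfsf10, the ligand TRAIL, had -1.07 in KO mice (limma adjusted p = 7.44e-04), at 6.32 to 8.00 in KO heme against 7.70 to 8.70 in KO control mice, and -0.62 in WT mice (limma adjusted p = 0.0509). Of the 6 CDK inhibitors other than Cdkn1a, Cdkn2c was higher in both genotypes, at 0.56 in KO (limma adjusted p = 3.30e-05) and 0.40 in WT mice (limma adjusted p = 0.00134). Cdkn2b at -0.45 (limma adjusted p = 3.70e-04) and Cdkn1b at -0.26 (limma adjusted p = 0.00651) were lower in KO mice, and in WT mice they had -0.11 (limma adjusted p = 0.435) and -0.23 (limma adjusted p = 0.0217). No gene of the 6 lists was called between KO and WT mice on either diet or in the interaction, so that differences between the genotypes' counts are not shown. The 9 proliferation markers moved with heme in both genotypes, and their part in these lists was not tested. The smooth muscle covariate was fitted over all genes, and with it 2970 were called for heme in KO mice, against 3469 without it, and 1192 in WT mice, against 3367.

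**Figure D4:**
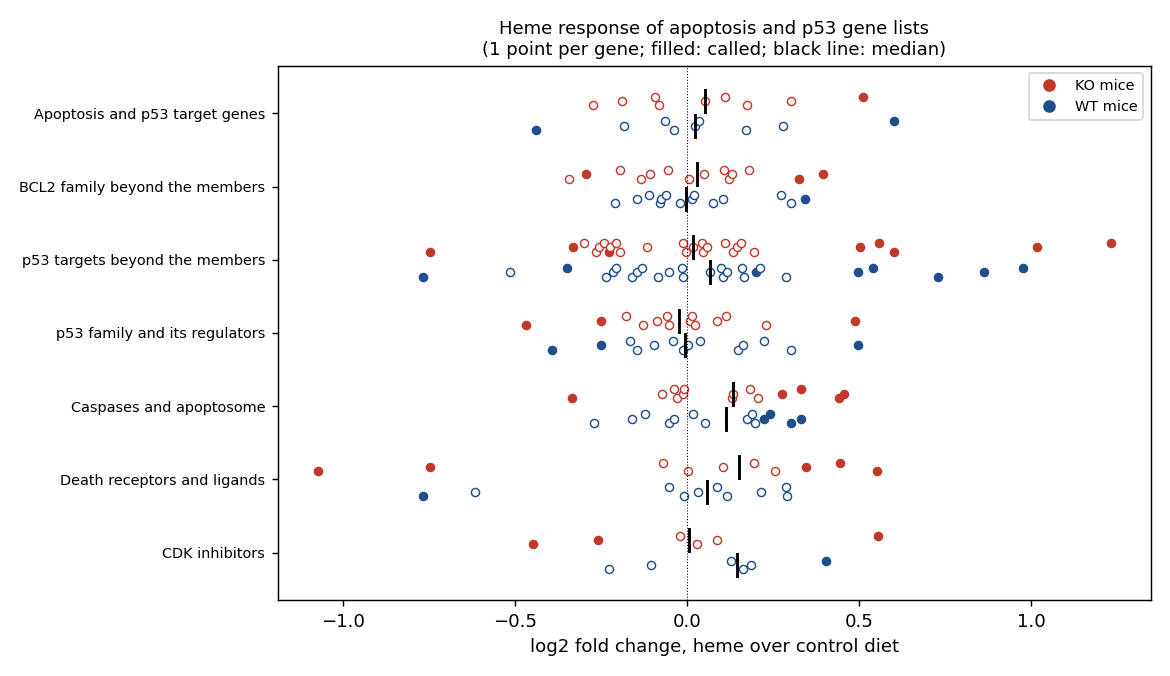
Heme over control diet as log2 fold change (horizontal axis) for the 9 measured genes and 6 lists of related genes, 1 point per gene, with KO mice above WT mice in each row, filled points for called genes and a black line for the median. Every list has genes on both sides of 0, and medians lie between -0.02 and 0.15.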

How the data were processed

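Colon RNA of 23 mice was hybridised to Affymetrix whole-transcript mouse arrays, from 100 ng per mouse. The authors deposited log2 values for each probe set, made by Robust Multi-array Average (no version given in the sources used here), and these were taken unchanged. They belong to Affymetrix transcript clusters, whereas the study's text describes probe sets that had been regrouped. Of 35556 probe sets, 21218 had 1 gene symbol, 1881 several and 12457 none, and only the first were used. Symbols were updated by Entrez number (21185 matched), and for 1386 genes with several probe sets the brightest was kept. Genes covered only by shared probe sets, or by none, were not analysed here. Arrays give no read depth, and their number limits the precision.

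A model of 4 group means was fitted to all 23 arrays with limma 3.58.1 (R 4.3.3) and moderated variances, and p-values were adjusted over 18820 genes. The study names no test behind its q-values, and its thresholds were kept. The steps were tested on simulated data. Groups came from the sample titles, with 0 columns unmatched. Alternatives were centred arrays, only the groups compared, array weights, trend and robust variances, dim genes left out, averaged probe sets, an adjusted p under 0.05, the replicate number as a block, a smooth muscle covariate and each array left out. Named genes were all measured members of the described set, Ppara, Mdm4 and, from each list, up to 3 called genes with the largest log2 fold change per direction in each genotype. Values of such a gene in the other genotype stand beside it. The genes and lists were chosen with earlier results of these data known. The promoter sequences are RefSeq's, assembly GRCm38.p6. Tables were joined in Python 3.11.15 with pandas 2.3.3, and figures drawn with matplotlib 3.10.9.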

Additional observations from a re-analysis of the deposited data

Results flagged for a closer look

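In 5 of 36 sets of values (9 genes in 4 groups), 1 mouse stood far from the others of its group, and chance flags about 1 in 20 such sets. For Mcl1, KO control replicate 4 had a log2 value of 10.57, against 10.66 to 10.71 in the other KO control mice, and WT control replicate 5 had 10.93, against 10.65 to 10.70. For Bbc3, KO control replicate 2 had 5.04, against 5.22 to 5.32. For Ccng1, WT heme replicate 2 had 10.79, against 10.59 to 10.66, and WT control replicate 1 had 10.72, against 10.61 to 10.63. The gap to the nearest mouse as a share of the group's range was 0.651, 0.826, 0.651, 0.651 and 0.787, in the order given. None of these values belongs to Bak1, Bcl2 or Cdkn1a.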

How the results depend on the processing

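Bak1 was called for heme in each genotype under every setting, with log2 fold changes of 0.47 to 0.54 in KO and 0.58 to 0.63 in WT mice when 1 array was left out, but 0.22 in KO and 0.28 in WT mice with averaged probe sets, where Bcl2 had -0.29 in WT mice. For heme in KO mice 1 gene was called, and 2 with centred arrays, only the groups compared, array weights, trend and robust variances, dim genes left out, averaged probe sets or the replicate number as a block, 3 at an adjusted p under 0.05, and 1 to 2 when an array was left out. The second gene was Bcl2 or Cdkn1a. For heme in WT mice 2 were called, 4 at an adjusted p under 0.05, 1 with the smooth muscle covariate, 3 with array weights and 2 to 3 when an array was left out. For the averaged heme effect 5 were called, 1 with the covariate and 3 to 5 when an array was left out. Mcl1 also lost that call with centred arrays (limma adjusted p = 0.0878) and the block (0.0151), and Mdm2 with array weights (0.0149). Between genotypes and in the interaction 0 were called under every setting. Over all genes, calls for heme in KO mice numbered 3469 in the main fit. In the settings with 2 described genes called, in the order given, they numbered 3188, 3059, 4031, 3527, 3695, 3447 and 3504. At an adjusted p under 0.05 there were 5235, and 2772 to 3614 when an array was left out. For heme in WT mice the main fit gave 3367 calls over all genes, and array weights gave 4191. There were 1192 with the covariate, 5092 at an adjusted p under 0.05 and 2585 to 3602 when an array was left out. The averaged effect gave 3318 with the covariate and 5239 to 5851 when an array was left out, against 5711. KO over WT on heme gave 17 with only the groups compared, 70 with array weights, 148 at an adjusted p under 0.05 and 28 to 69 when an array was left out, against 44. In WT mice signs turned for uncalled genes: Bcl2l1 was -0.03 with the covariate, and over arrays left out Bcl2l1 ran from 0.00 to 0.06, Bbc3 from -0.07 to 0.01, Bcl2l11 from -0.14 to 0.02 and Ccng1 from 0.00 to 0.04. Whether replicate numbers pair mice across groups was not settled. Correlations of same-numbered mice ran from -0.314 to 0.337 over 33 pairs, with a median of 0.08 and 13 of them above 0.1. They were not set beside correlations of differently numbered mice. The block called Bcl2 in KO mice (limma adjusted p = 0.00949) and, beside that of Mcl1 above, changed no other call of the described genes. The cause of these shifts was not tested. Bbc3 and the second probe sets are dim, and whether this bears on their values was not tested.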
